A study of Homo sapiens with 12 samples.

Results

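The response of SW1736 cells to thyroid hormone through the receptors the cells make themselves was measured in 6 of the series' 12 RNA sequencing libraries. The libraries were chosen by their labels: cells carrying the empty pCDH vector (EV) and given 10 nM triiodothyronine (T3), 3 libraries, against EV cells given the sodium hydroxide vehicle, 3 libraries. SW1736, the line named in the labels, is an established cell line of anaplastic thyroid cancer, the least differentiated form of the disease. The other 6 libraries come from the same line carrying pCDH-TRB, which supplies thyroid hormone receptor beta, under the same treatments. All cells spent 24 h without hormone in medium free of phenol red with charcoal-stripped serum, and then 24 h with T3 or vehicle. The EV libraries represent 1 cell line, the vehicle controls carry the vector too, and no untransduced cells were analysed here.

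T3 acts through the nuclear receptors encoded by THRA and THRB, which sit on DNA as partners of retinoid X receptors. Without hormone the receptors recruit corepressors such as NCOR1, and hormone exchanges these for coactivators of the NCOA family, so that genes held down in its absence are released. T3 enters cells through membrane transporters, and the deiodinases encoded by DIO1, DIO2 and DIO3 activate or inactivate it. The receptors are known in the thyroid field for the loss of THRB expression in dedifferentiated tumours.

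Counts within genes ran from 3819306 (EV with T3 replicate 3) to 12300558 (EV with vehicle replicate 2), and 19030 to 21826 gene symbols had a count. Replicates varied more with T3, where the biological coefficient of variation was 0.217, than with vehicle, where it was 0.0922. Of everything counted, 33.1% to 66.3% with vehicle and 69.6% to 92.0% with T3 were alignments to more than 1 place, with no overlap between the groups. The relation of transcript level to GC content also differed between libraries. Spearman's correlation across genes between GC content and a library's deviation from the mean of the 6 was 0.605 and 0.814 in EV with T3 replicates 1 and 3, -0.613 in EV with T3 replicate 2, and -0.236, -0.771 and -0.501 in the 3 vehicle libraries. Counts were therefore also fitted with offsets that take out each library's trend against GC content, and those values stand beside the results. The part of the alignment shares in the results was not tested.

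Thyroid markers were low or absent in both groups, and whether the cells are the labelled line was not tested. Of 18 thyroid differentiation genes, 6 were at 0 in all 6 libraries (TSHR, SLC5A5, FOXE1, DUOXA2, DIO1 and SLC5A8), and 11 had 3 counts or fewer in every library. The summed level of the list was 16.8 to 18.0 CPM (counts of a gene scaled to a fixed library total) with vehicle and 18.0 to 21.6 CPM with T3. The thyroid transcription factor PAX8 stood at 5.41 ± 0.510 CPM (SD, n = 3) with vehicle and 4.51 ± 0.824 CPM with T3. Epithelial genes were abundant, with KRT8 at 1388 ± 108 CPM and EPCAM at 553 ± 27.7 CPM in vehicle, while the mesenchymal VIM stood at 1.08 ± 0.269 CPM and CDH2 at 0. FN1, chosen beside them as a mesenchymal marker, was expressed, at 14.9 ± 1.55 CPM with vehicle and 71.6 ± 4.02 CPM with T3. Of 8 blood cell markers 4 were at 0, and LYZ, which encodes lysozyme, stood at 1369 ± 98.1 CPM with vehicle and 1281 ± 139 CPM with T3. Without LYZ the blood markers summed to 0.823 to 1.10 CPM with vehicle and 0.747 to 3.33 CPM with T3. The endothelial markers CDH5 and KDR were at 0, as were 5 of 8 fibroblast markers, COL1A2, COL3A1, PDGFRA, PDGFRB and DCN. Of 6 endothelial markers 5 had 3 counts or fewer in every library, as had 7 of the 8 fibroblast markers. Neither list was silent as a sum. The endothelial markers summed to 36.04 to 45.8 CPM with vehicle and 41.3 to 63.1 CPM with T3. The fibroblast markers summed to 17.2 to 20.7 CPM with vehicle and 17.2 to 33.6 CPM with T3.

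Both thyroid hormone receptor genes were transcribed and neither passed the test for a change with T3. THRA stood at 103, 84.4 and 101 CPM in vehicle replicates 1 to 3 and at 88.1, 74.8 and 97.2 CPM in T3 replicates 1 to 3, and the groups overlapped (log2 fold change -0.15, SE 0.145, edgeR adjusted p 0.550). With GC offsets THRA was lower (-0.38, edgeR adjusted p 0.00899). THRB stood at 13.2, 15.3 and 15.7 CPM with vehicle and at 12.5, 18.5 and 14.4 CPM with T3 (0.04, SE 0.188, adjusted p 0.915). Per kilobase of the longest annotated transcript, the vehicle level of THRA was 19.6 ± 2.08 CPM and that of THRB 1.99 ± 0.186 CPM, so THRA transcripts were the more abundant on that scale. Counts are per gene symbol, so the transcript forms of a gene cannot be told apart, and receptor protein was not measured here. The partner genes RXRA and RXRB stood at 29.3 ± 2.26 and 18.2 ± 0.800 CPM per kilobase. THRB is the gene the other vector carries, and in EV libraries its reads come from cells labelled as lacking that insert.

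Of 7 corepressor genes and 11 coactivator genes, all tested, 0 passed in edgeR, with median log2 fold changes of 0.06 and -0.03 beside -0.0018 over all genes. At an unadjusted p under 0.05 there were 2 corepressor genes, both lower, and 2 coactivator genes, and DESeq2 called 1 and 0. With GC offsets 2 corepressor genes were lower, TBL1X and TBL1XR1, and 0 coactivator genes passed. In that fit 7.35% of all genes tested were lower. SLC7A5 stood at 573 ± 53.9 CPM with vehicle and 405 ± 94.4 CPM with T3, and its partner SLC3A2 at 244 ± 15.6 and 194 ± 41.8 CPM. Of 5 transporter genes tested 0 passed in edgeR or DESeq2, 1 had an unadjusted p under 0.05 and the median was -0.26. With GC offsets SLC7A5, SLC3A2 and SLCO4A1 were lower, beside 7.35% of all genes tested. The deiodinase genes were nearly silent, with 0 counts for DIO1, 2 for DIO2 and 8 for DIO3 over the 6 libraries. CRYM, which encodes a T3-binding protein of the cytosol, stood at 1.10, 1.32 and 2.04 CPM with vehicle and 6.10, 2.99 and 4.36 CPM with T3. These groups did not overlap, and CRYM did not pass (1.495, SE 0.360, edgeR adjusted p 0.0899) except in 11 of 23 other settings, GC offsets among them (adjusted p 0.0168).

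T3 changed 200 of the 13425 genes tested in EV cells (1.49%) in edgeR's quasi-likelihood test with Benjamini-Hochberg adjustment at 0.05. Of these, 138 were higher (1.03%) and 62 lower (0.462%) with T3. The median log2 fold change was 1.22 among the higher and -1.08 among the lower genes, and 84 higher and 38 lower genes changed at least 2-fold. The libraries of the groups did not overlap in all 200, and they did not overlap in 3710 of all genes tested (27.6%). The higher genes held 119 protein-coding genes and the lower 59. The number of calls depended on single libraries: it was 31, 36 and 37 when vehicle replicates 1, 2 and 3 were omitted in turn, and 27, 4485 and 318 when T3 replicates 1, 2 and 3 were. With GC offsets, fitted to the 11669 tested genes with a GC value, 1604 passed (13.7%), 746 higher (6.39%) and 858 lower (7.35%). DESeq2 called 587, 304 higher and 283 lower.

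**Figure D1:**
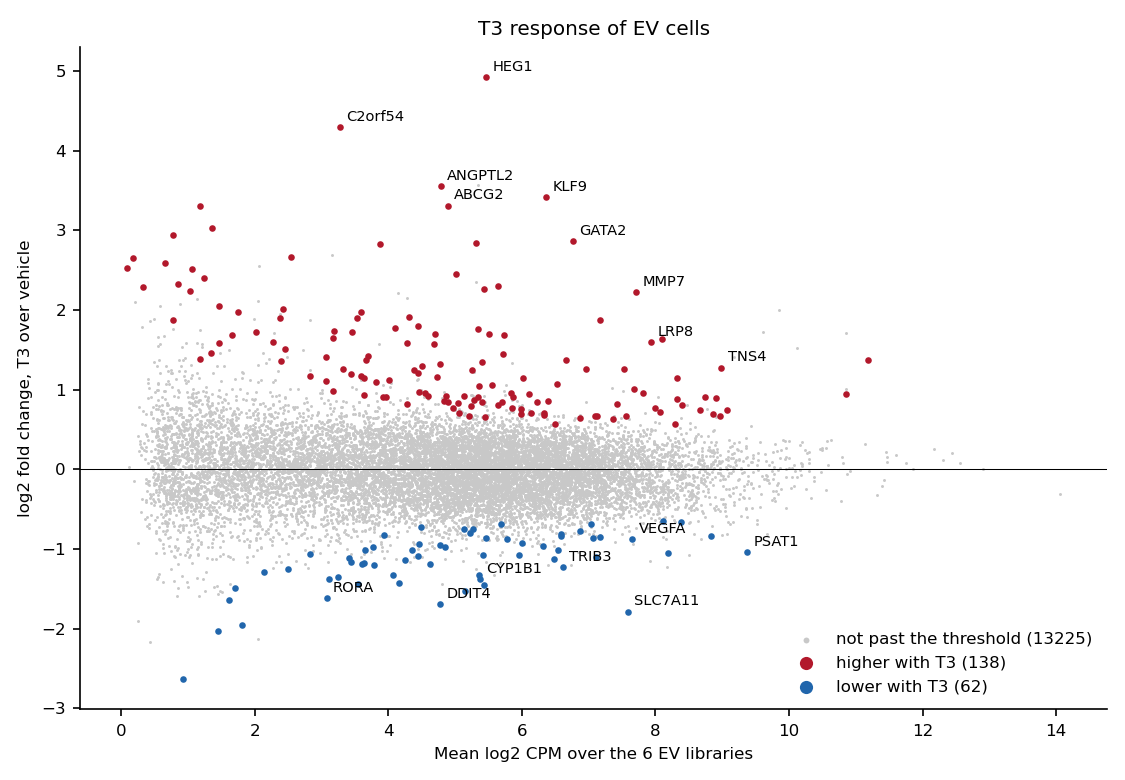
Log2 fold change of T3 over vehicle in EV cells (y axis) against the mean log2 CPM over the 6 EV libraries (x axis), 1 point per tested gene. Red points are the 138 genes higher with T3 and blue points the 62 lower genes (edgeR adjusted p under 0.05), and the red points reach farther from 0, up to HEG1 at 4.92.

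Of the 200 genes, 25 passed again when each of the 6 libraries was left out in turn, and all 25 were higher with T3. They include KLF9, HEG1, ANGPTL2, ABCG2, GATA2, FN1, MMP7, LRP8, SGK1 and TNC. Of the 62 lower genes, 0 passed in all 6 of these fits. Of the 186 called genes with a GC value, 183 passed in the same direction with GC offsets, and 171 of them did so with GC offsets without each EV library in turn.

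KLF9, HEG1 and ANGPTL2 were the marker genes chosen for the response, with earlier results known, and all 3 rose. KLF9 encodes a zinc finger transcription factor known as a direct T3 target in brain, skin and other tissues. It stood at 14.7, 14.6 and 13.2 CPM in vehicle replicates 1 to 3 and at 157, 171 and 125 CPM in T3 replicates 1 to 3. The lowest T3 library lay far above the highest vehicle library, and KLF9 rose 10.7-fold (log2 fold change 3.42, SE 0.164, edgeR adjusted p 3.94e-05). HEG1 encodes a large membrane protein known from cell junctions of blood vessels. Its level was 2.19, 3.21 and 2.78 CPM with vehicle and 87.0, 91.6 and 79.8 CPM with T3. This was the largest fold among the 200 called genes, 30.4-fold (4.92, SE 0.180, adjusted p 1.15e-05), and it moved HEG1 from a barely expressed gene to a moderately expressed one. ANGPTL2, a secreted angiopoietin-like glycoprotein, stood at 5.27, 3.13 and 5.09 CPM with vehicle and 49.4, 42.9 and 63.4 CPM with T3. The groups were again far apart, and ANGPTL2 rose 11.8-fold (3.56, SE 0.247, adjusted p 0.000283).

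Each of these 3 passed in all 24 other settings tried. Over the fits that left out 1 EV library the log2 fold change ran from 3.32 to 3.57 for KLF9, from 4.83 to 5.09 for HEG1 and from 3.34 to 3.73 for ANGPTL2.

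The promoter windows of selected raised genes were read from RefSeq (GRCh38.p14), 250 bases up to the transcription start. The letters AGGTCA, the half-site that thyroid hormone receptors and many other nuclear receptors bind, were searched on both strands. HEG1 and KLF9 are shown as the genes of largest and best-known response, and ABCG2 and GATA2 as strongly raised genes whose windows hold the half-site, printed in capitals (TGACCT is its reverse complement). A gene with several listed starts was counted if any window held the letters, and the window with the match is printed for ABCG2 (5 starts) and GATA2 (2 starts). HEG1 lies at chr3:125055998-125056247, KLF9 at chr9:70414658-70414907, ABCG2 at chr4:88158640-88158889 and GATA2 at chr3:128493202-128493451, all on the minus strand.
HEG1: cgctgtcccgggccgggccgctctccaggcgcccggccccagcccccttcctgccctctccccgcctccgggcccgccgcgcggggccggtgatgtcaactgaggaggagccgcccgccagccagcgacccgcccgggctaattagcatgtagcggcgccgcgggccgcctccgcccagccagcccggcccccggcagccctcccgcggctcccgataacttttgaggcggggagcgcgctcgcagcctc
KLF9: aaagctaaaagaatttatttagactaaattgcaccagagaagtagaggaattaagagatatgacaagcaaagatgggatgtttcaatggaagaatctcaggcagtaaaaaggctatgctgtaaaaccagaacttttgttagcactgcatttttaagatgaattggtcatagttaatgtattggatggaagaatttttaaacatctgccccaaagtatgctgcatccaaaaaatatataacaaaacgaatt
ABCG2: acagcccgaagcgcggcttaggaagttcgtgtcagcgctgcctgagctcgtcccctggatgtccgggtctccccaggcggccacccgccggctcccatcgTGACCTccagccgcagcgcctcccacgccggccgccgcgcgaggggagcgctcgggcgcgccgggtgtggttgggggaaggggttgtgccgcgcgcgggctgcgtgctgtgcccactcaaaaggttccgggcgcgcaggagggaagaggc
GATA2: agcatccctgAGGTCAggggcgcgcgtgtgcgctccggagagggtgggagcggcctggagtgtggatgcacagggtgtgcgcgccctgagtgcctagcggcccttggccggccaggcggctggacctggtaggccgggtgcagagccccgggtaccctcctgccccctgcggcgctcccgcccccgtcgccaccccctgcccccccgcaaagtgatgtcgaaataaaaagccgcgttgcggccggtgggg
The half-site occurred in 15 of the 84 windows found for genes called higher (17.9%) and in 7 of the 45 found for genes called lower (15.6%). Among all 27305 symbols with a window it occurred in 14.6%, and among the 9122 tested genes in 11.9%. A direct repeat of these letters with 4 bases between, the classical element of the receptors, occurred in 5 of all windows and in 0 of the windows of tested genes. A match of letters is not evidence of binding, and absence from this window says nothing of sites elsewhere.

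Next to these stood a group of transporters, enzymes and transcription factors. ABCG2, which encodes a drug efflux pump of the plasma membrane, went from 6.36, 5.10 and 5.28 CPM with vehicle to 56.0, 53.6 and 53.9 CPM with T3. Its replicates were close together and the rise was 9.93-fold (3.31, SE 0.155, edgeR adjusted p 3.94e-05). GATA2, a zinc finger transcription factor of blood, endothelial and some epithelial lineages, stood at 31.6, 23.8 and 24.4 CPM with vehicle and 211, 149 and 215 CPM with T3 (7.29-fold, adjusted p 0.000266). C2orf54, an open reading frame gene, went from 1.32, 0.905 and 0.833 CPM to 20.5, 14.1 and 23.6 CPM. Its vehicle level rests on few counts, and the fitted rise was 19.7-fold (4.30, SE 0.298, adjusted p 0.000283). ALDH1A3, an aldehyde dehydrogenase that makes retinoic acid, rose 7.10-fold, the cartilage lectin gene CLEC3A 7.19-fold and SLC25A35, of the mitochondrial carrier family, 6.37-fold. TP53INP2, which encodes an autophagy protein also described as a coactivator of thyroid hormone receptors, rose 5.46-fold and the small GTPase gene RASL11A 4.04-fold. RP11-475N22.4, a transcript with a clone-based name, rose 4.91-fold, and since strand use in counting is not given its reads cannot be told apart from those of an overlapping gene. SLC25A35 was the 1 gene of the 14 most raised that missed the threshold when a library was left out (adjusted p 0.0501 without EV with vehicle replicate 1).

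Matrix and surface genes were among the raised genes. FN1, which encodes the matrix protein fibronectin, stood at 14.3, 16.6 and 13.7 CPM with vehicle and 67.1, 72.7 and 74.9 CPM with T3, a 4.79-fold rise. MMP7, the secreted protease matrilysin, stood at 68.0, 76.0 and 78.5 CPM with vehicle and 363, 364 and 312 CPM with T3, a 4.66-fold rise. Neither gene's groups came near to overlapping. TNC, which encodes the matrix protein tenascin C, rose 3.25-fold (1.70, SE 0.174, edgeR adjusted p 0.00351). Among genes of high level, SCNN1A, the alpha subunit of the epithelial sodium channel, rose 3.66-fold. MICAL2, an enzyme that oxidises actin, rose 3.10-fold, and LRP8, a receptor for apolipoprotein E and reelin, rose 3.02-fold. The monoacylglycerol lipase gene MGLL rose 2.39-fold and the focal adhesion gene TNS4 2.42-fold. MGLL missed the threshold when vehicle replicate 1 or T3 replicate 1 was omitted (adjusted p up to 0.0671), and TNS4 when vehicle replicate 3 or T3 replicate 1 was (adjusted p up to 0.0529).

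**Figure D2:**
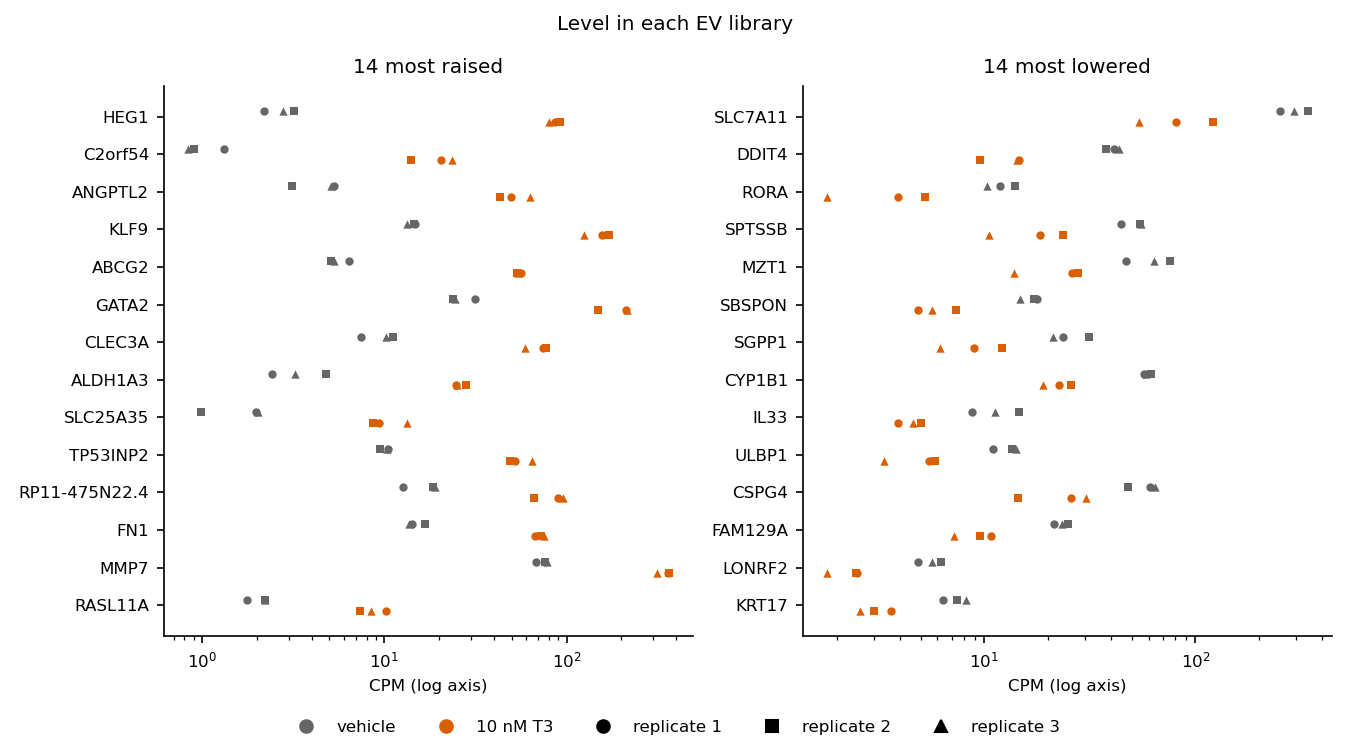
CPM on a log axis in each EV library (grey, vehicle; orange, 10 nM T3; circle, square and triangle, replicates 1, 2 and 3) for the 14 most raised and 14 most lowered genes whose mean log2 CPM is 2 or more. The genes were also chosen for groups that do not overlap, so the separate grey and orange points follow from that choice. The raised genes span the wider gaps.

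Without GC offsets fewer genes fell than rose, 62 against 138, whereas with them 858 fell and 746 rose. SLC7A11, the cystine importer that feeds glutathione synthesis, stood at 253, 342 and 295 CPM with vehicle and at 80.5, 121 and 53.9 CPM with T3. Its T3 libraries all lay below its vehicle libraries, and it fell to 0.290 of the vehicle level (-1.79, SE 0.264, edgeR adjusted p 0.0154). DDIT4, a stress-induced inhibitor of mTORC1 signalling, went from 41.2, 37.9 and 43.3 CPM to 14.5, 9.499 and 14.4 CPM (-1.70, SE 0.191, adjusted p 0.00505). CYP1B1, a monooxygenase of steroids and polycyclic hydrocarbons, went from 56.8, 62.0 and 58.3 CPM to 22.7, 25.7 and 19.0 CPM (-1.38, SE 0.152, adjusted p 0.00475). These were separate in every library too, as were all 200 called genes. A pair of genes of sphingolipid metabolism fell, SPTSSB, a small subunit of serine palmitoyltransferase (-1.53), and SGPP1, a sphingosine 1-phosphate phosphatase (-1.43). The orphan nuclear receptor gene RORA fell by 1.61 on the log2 scale, and the alarmin gene IL33 by 1.37. ULBP1, which encodes a ligand of the natural killer cell receptor NKG2D, fell by 1.35, and the surface proteoglycan gene CSPG4 by 1.33. The keratin gene KRT17 (-1.26), the matrix-like SBSPON (-1.44), the gamma-tubulin ring component MZT1 (-1.45), FAM129A (-1.32) and LONRF2 (-1.29) made up the rest of the 14.

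None of these 14 genes passed in all 6 fits that left out 1 EV library, and the highest adjusted p of each ran from 0.0501 (DDIT4, without EV with vehicle replicate 1) to 0.254 (LONRF2, without EV with vehicle replicate 2). With GC offsets all 14 passed, and 13 of them did so without each EV library in turn, IL33 being the exception.

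SLC7A11 and DDIT4 belong to the genes that ATF4, the transcription factor of the amino acid stress response, is known to drive, and a list of 22 genes of the integrated stress and unfolded protein responses was examined. Of the 22, all tested, 4 fell (DDIT4, TRIB3, ASNS and PSAT1) and 1 rose (CALR). Over all genes tested 0.462% fell and 1.03% rose. DDIT4, which prompted the look at this list, is 1 of the 4 that fell. A positive log2 fold change was found in 4 of the 22. The list's median was -0.47, beside -0.0018 over all genes tested. TRIB3, a pseudokinase that restrains ATF4, stood at 137, 130 and 141 CPM with vehicle and at 66.2, 41.0 and 68.0 CPM with T3 (-1.23, SE 0.192, edgeR adjusted p 0.0203). ASNS, asparagine synthetase, stood at 18.0, 16.5 and 15.6 CPM with vehicle and at 6.88, 8.33 and 6.41 CPM with T3 (-1.18, SE 0.173, adjusted p 0.0151). PSAT1, an enzyme of serine synthesis and an abundant transcript, stood at 820, 918 and 932 CPM with vehicle and at 470, 436 and 395 CPM with T3 (-1.04, SE 0.123, adjusted p 0.00606). In all 3 genes every T3 library lay below every vehicle library. ATF4 itself stood at 284 ± 10.8 CPM with vehicle and 213 ± 10.7 CPM with T3 and did not pass (-0.42, adjusted p 0.106).

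With GC offsets 11 members of this list fell and 3 rose, beside 7.35% and 6.39% of all genes tested in that fit. The 11 were ATF3, ATF4, DDIT3, DDIT4, TRIB3, ASNS, CHAC1, SESN2, PSAT1, HERPUD1 and ERN1, most of them genes of the amino acid stress branch. The 3 that rose, HSPA5, PDIA4 and CALR, encode chaperones of the endoplasmic reticulum. The number that fell was 1 without any single vehicle library or without EV with T3 replicate 1, 10 without EV with T3 replicate 2 and 7 without EV with T3 replicate 3. With GC offsets it stayed between 9 and 12 when each library was left out. Some genes outside the list were picked singly from the lowered genes after their values were seen, and they are no evidence for a group. These are MTHFD2 of mitochondrial one-carbon metabolism (-1.05), the peptide hormone gene ADM2 (-1.12) and the ATF4 partner gene CEBPG (-0.85). The amino acid transporter gene SLC1A4 (-0.75) and the glycyl-tRNA synthetase gene GARS (-0.66) were picked in the same way. Similar genes that did not fall were not counted.

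The composite element of C/EBP and ATF factors, searched as TGATGNAA on both strands, occurred in the windows of 4 of the 22 listed genes (ASNS, ATF3, CHAC1 and HERPUD1). It occurred in 2.25% of the 9122 windows of tested genes and 3.89% of all windows. The list was chosen as genes of these stress responses, so its share of matches does not bear on the response to T3. Of the 4 genes, ASNS alone was called without GC offsets. As for the half-site, a match of letters is not evidence of binding. Among genes called lower it was in the windows of ASNS and CEBPG, 2 of 45 (4.44%), and among genes called higher in 0 of 84. Both windows are printed from RefSeq (GRCh38.p14), with the element in capitals, as the lowered genes that hold it. Each gene has 2 listed starts, and the window with the match is shown. ASNS is at chr7:97872409-97872658 on the minus strand and CEBPG at chr19:33373863-33374112 on the plus strand.
ASNS: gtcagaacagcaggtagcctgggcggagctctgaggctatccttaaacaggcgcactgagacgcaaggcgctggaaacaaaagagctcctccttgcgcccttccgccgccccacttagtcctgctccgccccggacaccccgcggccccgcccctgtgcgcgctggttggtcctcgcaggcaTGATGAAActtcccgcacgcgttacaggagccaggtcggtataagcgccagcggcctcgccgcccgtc
CEBPG: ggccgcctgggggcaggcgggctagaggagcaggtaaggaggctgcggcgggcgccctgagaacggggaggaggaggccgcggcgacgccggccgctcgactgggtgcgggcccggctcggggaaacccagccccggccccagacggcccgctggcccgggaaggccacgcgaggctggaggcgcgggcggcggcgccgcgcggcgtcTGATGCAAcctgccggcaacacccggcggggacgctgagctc
The element ends 61 bases before the start in ASNS and 35 bases before it in CEBPG.

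Secreted regulators of blood vessels moved in opposite directions. Of 16 listed, 6 were tested, 2 rose (ANGPTL2 and THBS1) and 1 fell (VEGFA), with a median of 0.07. VEGFA, the main growth factor of endothelial cells, stood at 266, 261 and 254 CPM with vehicle and at 149, 134 and 143 CPM with T3. Replicates were tight, the groups were separate, and VEGFA fell to 0.546 of the vehicle level (-0.87, SE 0.108, edgeR adjusted p 0.00719). THBS1, thrombospondin 1, stood at 112, 128 and 132 CPM with vehicle and at 213, 218 and 227 CPM with T3 (0.82, SE 0.115, adjusted p 0.0133). Without any single vehicle library or EV with T3 replicate 1, VEGFA and THBS1 did not pass (adjusted p up to 0.0879 and 0.121). With GC offsets the same 2 rose and the same 1 fell, beside 6.39% and 7.35% of all genes tested in that fit.

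HEG1 was the 1 called gene of its complex. Of 15 genes of the HEG1 and cerebral cavernous malformation complex and its kinase cascade, 11 were tested and HEG1 alone passed in edgeR, with or without GC offsets. KRIT1, which binds the tail of HEG1, had a log2 fold change of -0.38 (edgeR adjusted p 0.288), CCM2 0.18 (0.597) and PDCD10 -0.38 (0.485). KLF9 was likewise the 1 called gene among 12 Kruppel-like factors tested, whose median was -0.13 and of which 2 had a positive change. With GC offsets 2 of the 12 rose, KLF9 and KLF12, and 4 fell, KLF5, KLF10, KLF11 and KLF13. Over all genes tested in that fit 6.39% rose and 7.35% fell, and without offsets 1.49% passed. DESeq2 called 1 gene higher and 1 lower in the HEG1 list, and the same numbers among the Kruppel-like factors. At an unadjusted p under 0.05 in edgeR these lists had 3 and 4 genes.

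Genes known as T3 targets in liver, heart, brain or pituitary mostly did not pass. Of 31 listed, 18 were tested, KLF9 alone was called in edgeR, and the median was 0.09 with 10 of 18 positive. DESeq2 called 3 of the list, all higher. With GC offsets 6 rose and 4 fell in edgeR, beside 13.7% called over all genes tested. HR, a corepressor gene that is a T3 target in brain and skin, stood at 26.8, 25.8 and 30.7 CPM with vehicle and at 52.2, 35.01 and 62.3 CPM with T3. FURIN, a proprotein convertase gene and a T3 target in liver cells, stood at 59.2, 55.0 and 60.1 CPM with vehicle and at 101, 67.3 and 116 CPM with T3. In both genes the groups did not overlap, EV with T3 replicate 2 was the lowest T3 library, and neither passed (HR 0.83, SE 0.213, edgeR adjusted p 0.107; FURIN 0.70, SE 0.195, adjusted p 0.124). Each passed in 13 of 24 other settings, among them GC offsets (HR 0.50, adjusted p 0.00743; FURIN 0.41, adjusted p 0.00374). THRSP, DIO1, UCP1 and PCK1 were among the 13 listed genes that were too low to be tested.

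Genes of antigen presentation by MHC class I rose in part. Of 16 listed, 14 were tested, 4 rose (1.03% of all genes tested did), 13 had a positive change and the median was 0.65. ERAP2, a peptidase that trims peptides in the endoplasmic reticulum, stood at 23.0, 24.8 and 23.6 CPM with vehicle and at 61.2, 73.8 and 46.2 CPM with T3, a 2.54-fold rise (1.35, SE 0.183, edgeR adjusted p 0.0128). TAP2, of the peptide transporter, went from 6.58, 5.35 and 6.20 CPM to 13.3, 12.1 and 9.75 CPM (0.98, adjusted p 0.0453). TAPBP (0.66) and the chaperone gene CALR (0.67) rose less. The groups did not overlap in any of the 4. The number called was 0 without any single vehicle library or EV with T3 replicate 1, 11 without EV with T3 replicate 2 and 6 without EV with T3 replicate 3. With GC offsets 11 rose (6.39% of all genes tested did), and 8 to 10 rose when each library was left out of that fit. DESeq2 called 7 of the 14, all higher, and 304 of all 13425 genes higher. HLA genes are close paralogs, and how their reads were divided is uncertain.

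Interferon-stimulated genes had a median of 0.52 over the 18 of 40 that were tested, and 15 of the 18 had a positive change. OAS3, a sensor of double-stranded RNA, was the 1 that passed, at 34.9, 36.6 and 37.2 CPM with vehicle and 62.1, 60.2 and 69.3 CPM with T3 (0.81, SE 0.128, edgeR adjusted p 0.0213). It did not pass without any single vehicle library or EV with T3 replicate 1 (adjusted p up to 0.159). Over all genes tested 1.03% rose. At an unadjusted p under 0.05 there were 10 of the 18, all higher. DESeq2 called 6 of them, all higher, and 304 of all 13425 genes higher. With GC offsets 11 of the 18 rose and 0 fell, beside 6.39% and 7.35% of all genes tested in that fit. The list was written with earlier results of these data known. Of 21 genes of JAK-STAT signalling and interferon regulatory factors, IRF1 alone passed in edgeR without offsets. It rose from 15.1, 11.4 and 12.9 CPM to 41.3, 33.3 and 41.8 CPM, a 2.98-fold change (1.58, SE 0.171, adjusted p 0.00466). Its groups were well apart, and it missed the threshold in 1 of the fits that left out a library (adjusted p 0.0516 without EV with T3 replicate 1). With GC offsets 3 of the 21 rose and 0 fell.

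RUNX2, a transcription factor of bone formation that is also studied in thyroid cancer, stood at 19.1, 16.8 and 14.4 CPM with vehicle and at 31.7, 35.9 and 25.7 CPM with T3. The groups were separate and the call was near its threshold (0.91, SE 0.179, edgeR adjusted p 0.0481). RUNX2 did not pass without any single vehicle library or EV with T3 replicate 1 (adjusted p up to 0.282), and with GC offsets its adjusted p was 0.00047. SGK1, a kinase known for its induction by steroid hormones, was the 1 called gene among 16 of phosphoinositide 3-kinase signalling and rose 2.72-fold, from 26.3, 30.03 and 28.7 CPM to 79.1, 85.6 and 66.7 CPM. NKD1, a feedback inhibitor of Wnt signalling, was the 1 called among 10 Wnt feedback genes, at 30.3, 32.5 and 28.6 CPM with vehicle and 64.6, 60.9 and 64.4 CPM with T3 (1.05, SE 0.128, adjusted p 0.00678). It did not pass without any single vehicle library or EV with T3 replicate 1 (adjusted p up to 0.0877). DESeq2 called 2 of the 16 phosphoinositide 3-kinase genes and 1 of the 10 Wnt genes, all higher. With GC offsets 5 of the 16 rose and 0 fell, and 2 of the 10 rose and 1 fell. In that fit 6.39% of all genes tested rose and 7.35% fell, and without offsets 1.03% rose. TFAP2C, a transcription factor gene of low level, rose 3.74-fold.

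In the metabolic and proliferation lists little passed. SCD, the desaturase that makes monounsaturated fatty acids, was the 1 called of 9 fatty acid synthesis genes, at 262, 240 and 255 CPM with vehicle and 375, 363 and 387 CPM with T3, a 1.49-fold rise (0.57, SE 0.106, edgeR adjusted p 0.0401). It did not pass without any single vehicle library or EV with T3 replicate 1 (adjusted p up to 0.265). With GC offsets 3 of the 9 fatty acid synthesis genes rose and 0 fell. In edgeR 0 of 25 genes of cholesterol synthesis and uptake passed, with a median of 0.20, and 0 of 23 glycolysis genes, with a median of 0.15. At an unadjusted p under 0.05 these lists had 6 and 7 genes, and DESeq2 called 1 and 2. Of 31 genes of the G1/S transition and replication 0 passed, with a median of 0.07, and of 30 mitotic genes 0 passed, with a median of -0.12. They had 8 and 3 genes at an unadjusted p under 0.05, and DESeq2 called 1 and 0. MKI67, the proliferation antigen gene, stood at 670 ± 56.9 CPM with vehicle and 850 ± 150 CPM with T3. Of the 15 genes encoded by the mitochondrial genome 0 passed in edgeR or DESeq2, 0 had an unadjusted p under 0.05 and the median was 0.17. With GC offsets these lists had 2 higher and 2 lower (cholesterol), 2 and 2 (glycolysis), 3 and 1 (G1/S), 0 and 1 (mitosis), and 0 and 0 (mitochondrial). Over all genes tested with GC offsets 6.39% were higher and 7.35% lower. Over all 13425 genes 2726 had an unadjusted p under 0.05 in the fit without offsets.

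**Figure D3:**
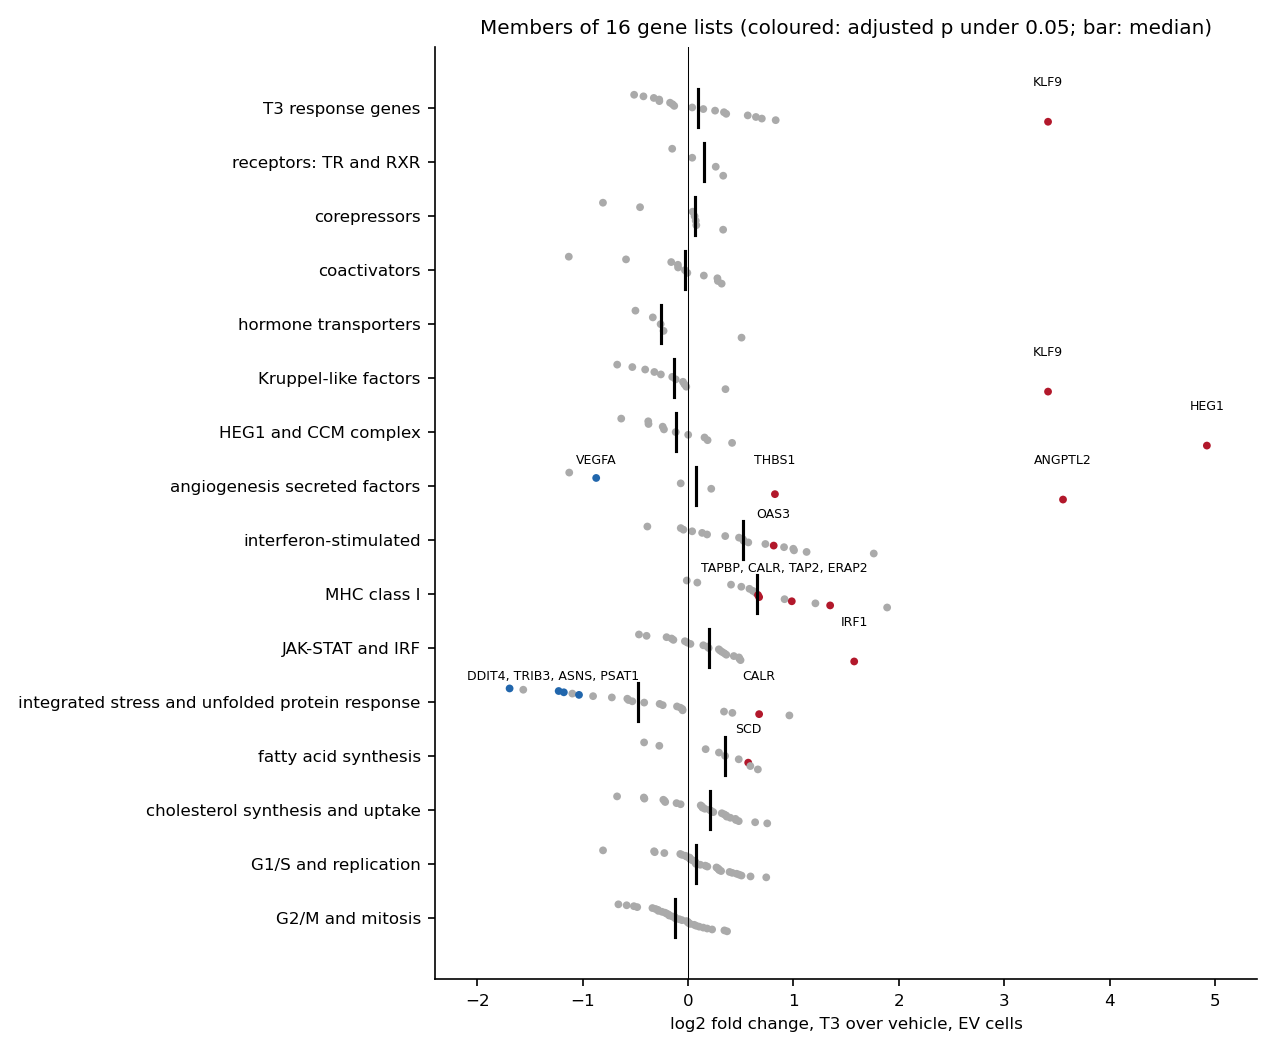
Log2 fold change of T3 over vehicle in EV cells for each tested member of 16 gene lists (1 point per gene, red or blue where the edgeR adjusted p was under 0.05, a black bar at the list's median). KLF9, HEG1 and ANGPTL2 each stand far from the other members of their lists, the stress response list has its median at -0.47, and the MHC class I list at 0.65.

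The dependence on GC content was visible across all genes. Among the fifth of genes with the lowest GC content (up to 40.8% over the longest transcript) the median log2 fold change was -0.38, and among the fifth with the highest (58.1% or more) it was 0.28. Genes called higher had a median GC content of 51.1%, genes called lower 43.2% and all genes tested 48.1%. With GC offsets the called genes had medians of 47.4% and 47.0%. Low-GC genes lay lowest in EV with T3 replicates 1 and 3. In the fit with offsets several of the most raised genes kept a similar value: KLF9 had a log2 fold change of 3.47, HEG1 4.87, ANGPTL2 3.39, FN1 2.46 and MMP7 2.48. SLC7A11 went from -1.79 to -1.27 and MZT1 from -1.45 to -0.76.

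**Figure D4:**
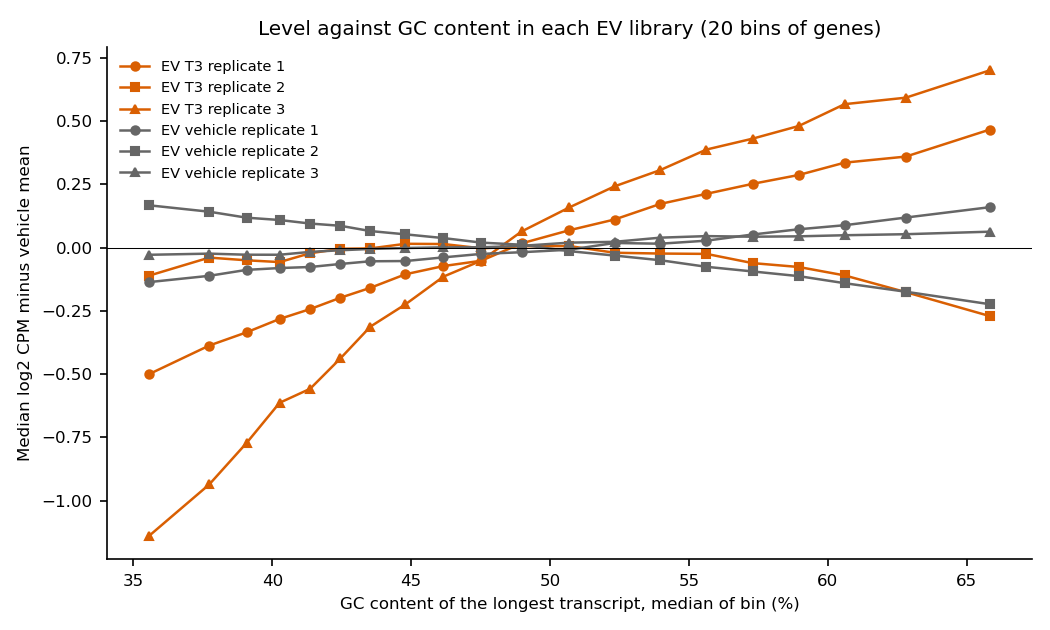
Median over genes of log2 CPM minus the mean of the vehicle libraries (y axis) in 20 bins of GC content of the longest transcript (x axis, in percent), 1 line per EV library. The lines of EV with T3 replicates 1 and 3 rise from left to right, and that of replicate 2 lies near the vehicle libraries.

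The same genes were followed in cells with the supplied receptor, in a model over all 12 libraries with a term for the difference between the vectors. TRB with T3 replicate 2 stands apart from the other TRB libraries, so values from the 11 others are given as well. The difference passed in 374 of 14431 genes (2.59%) with 12 libraries and in 2259 of 14825 (15.2%) with 11. In TRB cells 192 of the 200 genes had a fold change of the same sign, and 142 were called with that sign. Of all 14431 genes 14.7% were called in TRB cells in either direction, 1233 higher and 895 lower. The share with the same sign in both vectors was not counted over all genes. The difference was called in 45 of the 200, and the response was larger in TRB cells in 44 of these. Taken in the direction of each gene's change in EV cells, the median log2 fold change was 1.15 in EV cells and 1.67 in TRB cells. With 11 libraries, 186 were called with the same sign in TRB cells, where 33.3% of all genes were called in either direction. The difference was called in 114 of the 200, and the response was larger in TRB cells in 107.

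The KLF9 responses of the vectors did not differ past the threshold. In the 12-library scaling it went from 14.1 ± 0.790 to 149 ± 23.6 CPM in EV cells and from 9.40 ± 1.51 to 156 ± 88.0 CPM in TRB cells, with 105 CPM as the mean of TRB replicates 1 and 3. The difference of the responses in log2 units was 0.64, with an SE of 0.465 (edgeR adjusted p 0.406), and 0.10 with 11 libraries (adjusted p 0.785). A p that misses the threshold does not show that they are equal. HEG1 reached 85.1 ± 6.01 CPM with T3 in EV cells and 259 ± 26.5 CPM in TRB cells, from 2.71 ± 0.510 and 2.64 ± 0.885 CPM (difference 1.68, SE 0.330, adjusted p 0.0257). Of the 12 fits that left out 1 library, the difference for HEG1 passed without TRB with T3 replicate 2 and without TRB with vehicle replicate 1, and its adjusted p was up to 0.120 in the others. Among genes past the threshold both for T3 in EV cells and for the difference, whose mean log2 CPM is 2 or more, the most positive differences were those of TP53INP2 (4.28), TNC (4.25), TFAP2C (4.21) and ABCG2 (3.77), each with a response in EV cells that TRB cells exceeded. With T3, TP53INP2 stood at 54.5 ± 7.98 CPM in EV cells, and the TRB replicates 1 to 3 held 904, 328 and 971 CPM. In genes lowered in EV cells the difference was most negative for GALNT12, a mucin-type glycosyltransferase gene (-2.28), C9orf152 (-1.77) and ASNS (-1.51). GALNT12 fell from 145 ± 7.92 to 84.4 ± 1.88 CPM in EV cells, and TRB cells with T3 held 17.9 ± 5.64 CPM.

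LRP8 was the 1 gene among the 200 whose response was called smaller in TRB cells with 12 libraries. It stood at 121 ± 6.85 CPM with vehicle and 364 ± 26.2 CPM with T3 in EV cells. In TRB cells it stood at 75.6, 82.7 and 79.1 CPM with vehicle and at 108, 110 and 94.4 CPM with T3, all below the 3 EV libraries with T3. The response was 1.59 in EV cells and 0.39 in TRB cells (difference -1.19, SE 0.192, edgeR adjusted p 0.00999). This difference passed without each of the 12 libraries in turn, and did not pass without a count filter or with a required fold of 1.5. SPTSSA, a subunit gene of serine palmitoyltransferase named after its values were seen, changed by -0.94 in EV cells and by 1.55 in TRB cells (adjusted p 0.0308). The difference for SPTSSA had an adjusted p of 0.0547 with 12 libraries and 0.00386 with 11. With 11 libraries the difference was also called, with a smaller or opposite response in TRB cells, for RP11-58O9.2, CYP4V2, ERRFI1, RP4-784A16.5 and ANXA10, named after their values were seen.

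**Figure D5:**
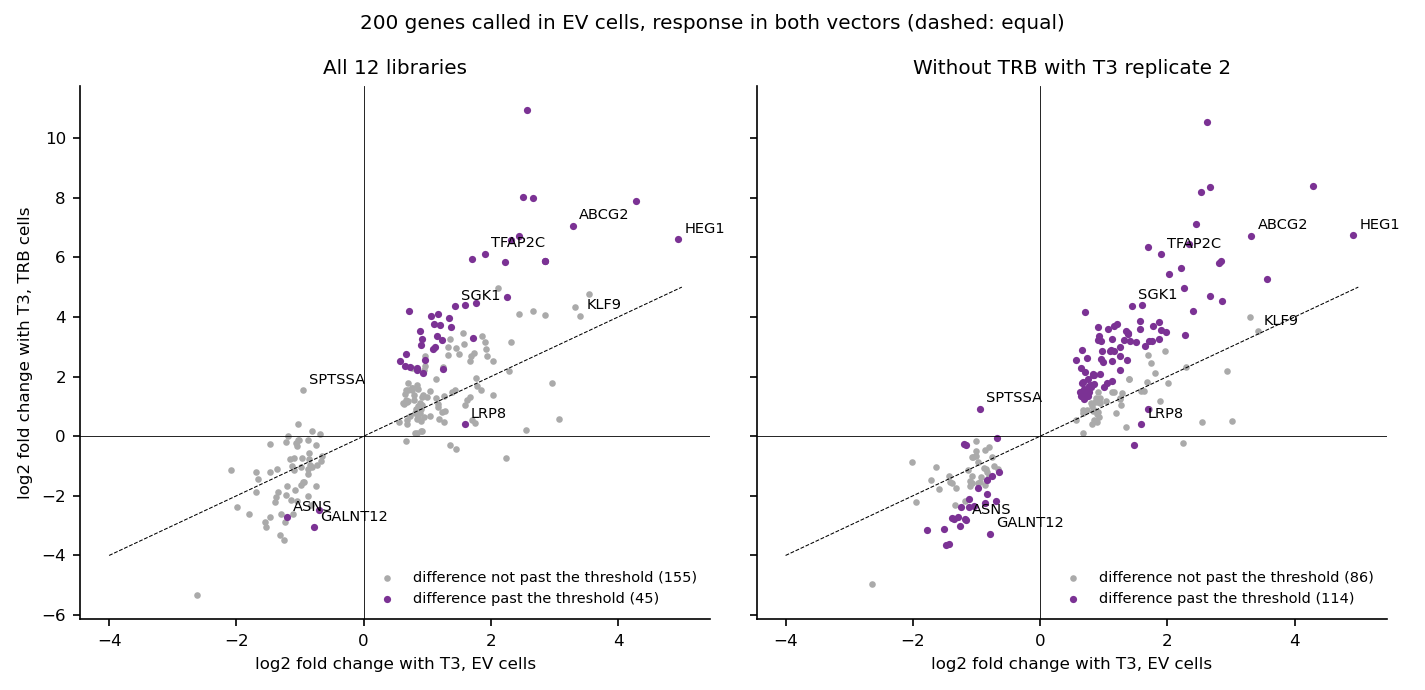
Log2 fold change with T3 in TRB cells (y axis) against that in EV cells (x axis) for the 200 genes called in EV cells, with all 12 libraries (left) and without TRB with T3 replicate 2 (right). Purple points are genes whose difference passed (45 and 114), most of them farther from 0 in TRB cells, and LRP8 lies on the other side of the dashed line of equal responses.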

How the data were processed

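RNA of 12 libraries (4 groups of 3, taken from the labels) was sequenced, and the 6 EV libraries are the main subject, with the 6 TRB libraries used for the difference between vectors. Per the labels' protocols, Trizol was used for RNA extraction, a BioAnalyzer for RNA quality and the Kapa Hyperprep kit for libraries. The deposited values are raw read counts, 1 file a library with 56832 gene symbols, and a sequence of upstream steps beyond the tool names is not stated. The submitters' processing notes name STAR 2.7, HTSeq 0.10 and hg38, while annotation, counting options and strand use are not given in the sources used here, so reads of overlapping genes, antisense genes and close paralogs are uncertain. Lines for reads of no gene stayed out of library sizes and tests (in EV libraries 33.1% to 92.0% not unique, 2.14% to 17.2% no feature and 0.258% to 1.81% ambiguous). Depth was 3819306 to 12300558 counts in genes per EV library, and the precision of low genes is limited by it. The labels do not say that replicates are separate cultures, so p-values measure the spread between these samples, which may be technical. Replicates of a group differed by more than sampling noise.

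The 6 libraries were fitted alone with edgeR 4.0.16 in R 4.3.3: filterByExpr (minimum count 10, minimum total 15), TMM scaling, a quasi-likelihood test, two-sided, with Benjamini-Hochberg adjustment over all 13425 genes at 0.05. CPM are counts scaled by TMM library size, and standard errors come from the log2 fold change and its F statistic. GC offsets take out a spline (5 degrees of freedom) of each library's log2 CPM, with a prior count of 2, against the GC content of the longest GENCODE release 29 transcript matched by symbol. The difference between vectors was a contrast of 4 group terms over 12 or 11 libraries. Alternatives were DESeq2 1.42.0, voom in limma 3.58.1, other scalings and filters, a required fold of 1.5, a replicate block and leaving out each library. Leaving out libraries from the fit with GC offsets, and list counts under each setting, were added after seeing the data. On simulated counts for T3 against vehicle in EV cells, 200 of 13260 genes were changed. Of the 2-fold changes 66% were recovered, and of the 4-fold changes 96%. Of the calls 7.955% were false, and 0 calls arose without a change. Whether these rates hold for the EV libraries, whose trends against GC content differed, was not tested.

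Named genes are 13 fixed ones (among them KLF9, HEG1, ANGPTL2, THRA and THRB), the 14 most positive and 14 most negative called genes whose mean log2 CPM is 2 or more and whose groups do not overlap, up to 4 called genes per list and direction, the 4 most positive and 4 most negative differences between vectors among genes past the threshold for both T3 in EV cells and the difference (mean log2 CPM again 2 or more), and the 6 called genes of smallest adjusted p whose mean log2 CPM is 7 or more. The genes and the 36 lists were chosen with earlier results of these data known. A deposited table of normalized values was not used here, and the results of a few genes are not reported here.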

Additional observations from a re-analysis of the deposited data

Results flagged for a closer look

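For 20 named genes the T3 response differed between the vectors in edgeR's test of the difference over 12 libraries (TRB minus EV, log2 scale, Benjamini-Hochberg adjusted p under 0.05). A more positive response in TRB cells was found for HEG1 (1.677), THRB (1.72), RUNX2 (2.624), C2orf54 (3.595), ABCG2 (3.77), CLEC3A (3.003), ALDH1A3 (3.016), TP53INP2 (4.277), FN1 (2.399), MMP7 (3.64), ERAP2 (2.635), TAP2 (1.613), SCD (1.957), SGK1 (2.922), TNC (4.248) and TFAP2C (4.214). Each response is relative to the vehicle level of its own vector, and a more positive one need not mean a higher level with T3. CLEC3A went from 9.51 ± 1.90 to 69.5 ± 9.88 CPM in EV cells and from 0.508 ± 0.163 to 30.4 ± 1.63 CPM in TRB cells. The other genes with a more positive response had the higher mean with T3 in TRB cells. In TRB cells the THRB reads of the cells' own gene and of the supplied receptor cannot be told apart, and THRB had no called response in EV cells. A more negative response was found for ASNS (-1.51), GALNT12 (-2.276), C9orf152 (-1.77) and LRP8 (-1.192). ASNS, GALNT12 and C9orf152 fell in EV cells and fell by more in TRB cells, and LRP8 rose in EV cells and was not called in TRB cells (0.39, edgeR adjusted p 0.0789). The adjusted p closest to the threshold was that of C2orf54 (0.048), whose level in TRB with T3 was 348, 72.5 and 395 CPM in replicates 1 to 3.

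Alignments that were not unique, which name no gene and enter no comparison, made up 69.6% of everything counted in the lowest of the EV libraries with T3, above 66.3% in the highest of those with vehicle. With 3 libraries against 3 the smallest p an exact permutation test allows is 0.1, and the difference was not tested. Its part in the results was not tested.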

How the results depend on the processing

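The count of genes called for T3 in EV cells (200) was 195 with limma-voom, 198 with RLE factors, 215 with upper-quartile factors and 164 with a mean count of 50 or more. It was 587 with DESeq2, 1305 without a count filter (591 higher and 714 lower), 1604 with GC offsets, 39 with a required fold of 1.5, 33 with all 12 libraries and 1087 with 11. Leaving out 1 EV library gave 27 to 4485, and with GC offsets 1206, 647 and 692 without vehicle replicates 1, 2 and 3 and 957, 2280 and 1455 without T3 replicates 1, 2 and 3. Whether replicate numbers pair the libraries was not settled. Deviations of same-numbered libraries correlated at -0.05, 0.50 and 0.18, and these deviations include each library's trend against GC content. Among the T3 libraries only replicate 2 correlated best with the vehicle library of its own number. A replicate block gave 1423 calls (526 higher and 897 lower), and 1597 with GC offsets. The difference between vectors (374 genes) was called in 392 genes with limma-voom, 368 with RLE factors, 362 with upper-quartile factors, 316 with a mean count of 50 or more and 395 with a replicate block. It was called in 1022 with DESeq2, 238 without a count filter, 2335 with GC offsets, 2381 with the block and GC offsets, and 158 with a required fold of 1.5, and leaving out 1 library gave 136 (without TRB with vehicle replicate 3) to 2259 (without TRB with T3 replicate 2). Of 52 named genes called, 16 passed in every setting that gave them a value, which for C2orf54 and RP11-475N22.4 was 16 of 24 and for TFAP2C 23. Over 57 named genes and 24 alternatives, 1119 results kept their direction and side of the threshold, 181 no longer passed and 44 newly passed. THRB alone changed sign, to -0.03 without EV with vehicle replicate 1 and -0.16 without EV with T3 replicate 2, did not pass in either fit, and ranged up to 0.16 (without EV with T3 replicate 1) over the fits without offsets that left out 1 EV library. Depth limits genes near 1 CPM, such as CRYM and C2orf54 with vehicle. Apart from settings that leave out libraries or genes, the cause of these shifts was not tested.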

Other observations

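The following called genes are named after their values were seen. Among transcription factor genes, the clock output factor DBP rose from 14.9, 10.4 and 12.3 CPM with vehicle to 32.2, 23.3 and 33.3 CPM with T3, and the clock repressor BHLHE41 from 62.3, 60.6 and 55.3 CPM to 125, 141 and 106 CPM. The developmental factors OSR1 (1.68) and TBX3 (0.94) and the kinase gene PIM1 (1.91) rose as well, and the groups did not overlap in any of these 5. Picked singly from the called genes, and no evidence for a group, GBP2 (0.90), GBP3 (1.12), APOL2 (0.91), APOL6 (1.17), PARP12 (0.85), RNF213 (1.01) and ZNFX1 (0.64) rose. Of the listed interferon-stimulated genes 1 of 18 passed in edgeR. The GBP and APOL genes are paralogs of one another and the division of their reads is uncertain. HSPG2, which encodes the proteoglycan perlecan, rose by 1.14 on the log2 scale, FRAS1 by 0.90, and the lysyl oxidase-like genes LOXL1 by 1.72 and LOXL4 by 1.41. The nuclear long noncoding RNA NEAT1 rose from 1215, 1385 and 1181 CPM to 2471, 2691 and 2103 CPM. Each gene named above in this section passed in edgeR and again with GC offsets.

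Among lowered genes named in the same way were surface adhesion molecules of epithelia, CEACAM5 (-1.50) and CEACAM6 (-0.98), which are paralogs of each other, and the tight junction gene CLDN1 (-0.84), while CLDN2 rose (0.69). The chemokine receptor gene CXCR4 fell from 29.4, 27.6 and 29.8 CPM to 11.7, 12.7 and 16.9 CPM, and the chromatin protein gene HMGA2 from 188, 199 and 174 CPM to 82.1, 116 and 60.8 CPM. In edgeR 0 genes passed in the lists of collagens, laminins and integrins (25 tested, 7 with an unadjusted p under 0.05), the transforming growth factor beta pathway (18 and 4), the Notch pathway (11 and 3), fatty acid oxidation (20 and 4), ion pumps (10 and 3) and replication-dependent histones (18 and 0). DESeq2 called 3, 2, 0, 0, 0 and 0 genes of these lists. With GC offsets edgeR called 5 higher and 5 lower, 1 and 1, 1 and 3, 2 and 2, 1 and 0, and 0 and 0, beside 13.7% of all genes tested.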
